A study of Mus musculus with 4 samples.

Results

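Hmgcs1, Idi1, Fdft1, Sqle, Cyp51, Srebf2 and Insig1 are 7 genes of cholesterol synthesis and of its control by the transcription factor SREBP2, out of 32285 genes counted in islet cells from mice with and without the long non-coding RNA Malat1. They were taken by symbol from a list of cholesterol pathway genes. The series has 4 samples of cultured pancreatic islets from C57BL/6 mice, wild type or Malat1-/-, each kept with the solvent DMSO or with the dioxin TCDD, a ligand of the aryl hydrocarbon receptor. The values below come from the 2 TCDD libraries, 1 wild type and 1 Malat1-/- (here Malat1-null), so both groups carry the treatment, while the libraries given solvent alone were not analysed here. Gene expression was measured by 10x Genomics single-cell RNA sequencing, which counts the 3′ end of each captured RNA molecule once by its unique molecular identifier (UMI). The dose and duration of TCDD, the age and sex of the mice and the number of mice behind a library are not given in the labels. Beta cell is the cell type named in the labels, yet whole dispersed islets were loaded, and cell classes were therefore set from marker genes. With a single library per genotype there is no spread between animals, no test was possible, and every interval below is a 95% interval for counting error only.

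Animal cells make cholesterol from acetyl-CoA through the mevalonate pathway, and they adjust its rate to the sterol content of the endoplasmic reticulum. When sterols are low, the escort protein SCAP carries SREBP2 to the Golgi, where proteases encoded by Mbtps1 and Mbtps2 free its transcription factor domain; when sterols are high, INSIG proteins hold SCAP back. The freed domain activates genes of cholesterol synthesis and uptake and also Insig1 and Srebf2 themselves, so these genes are commonly read together as a measure of sterol demand. In beta cells cholesterol is a component of insulin granules and of the plasma membrane domains where they fuse.

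In build mm10, as GENCODE annotates them, the protein-coding genes lie at chr13:119690379-119708260 (Hmgcs1), chr13:8885501-8892451 (Idi1), chr14:63145150-63179578 (Fdft1), chr15:59315077-59331192 (Sqle), chr5:4081145-4104746 (Cyp51), chr15:82147181-82205379 (Srebf2) and chr5:28071363-28078662 (Insig1). Their promoters were examined for the elements through which SREBP2 is known to act. The RefSeq promoter table for build GRCm38.p6, whose coordinates are those of mm10, held 5 of the 7 genes (Hmgcs1, Insig1, Srebf2, Cyp51 and Idi1). In the 250 bases before the start site, on both strands, the sterol regulatory element TCACNCCAC was found in Hmgcs1, with its first base 137 bases upstream, and it was present in 1.05% of all 32851 promoters in the table. The NF-Y box CCAAT was found in 5 of the 5 promoters against 33.8% of all, and the Sp1 box GGGCGG in 5 of the 5 against 32.7% of all. The following stretches are shown because they hold these matches, which stand in capitals, and each runs 5′ to 3′ on the gene's own strand. Hmgcs1 covers chr13:119690166-119690315 (plus strand), Insig1 chr5:28071177-28071296 (plus), Srebf2 chr15:82147054-82147173 (plus), Cyp51 chr5:4104712-4104741 (minus) and Idi1 chr13:8885550-8885579 (plus). The first 3 lie upstream of the gene as GENCODE annotates it, and the Cyp51 and Idi1 stretches lie within the annotated gene.
Hmgcs1: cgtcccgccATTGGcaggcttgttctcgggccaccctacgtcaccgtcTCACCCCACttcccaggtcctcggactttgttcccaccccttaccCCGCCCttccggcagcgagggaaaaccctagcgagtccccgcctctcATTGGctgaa
Insig1: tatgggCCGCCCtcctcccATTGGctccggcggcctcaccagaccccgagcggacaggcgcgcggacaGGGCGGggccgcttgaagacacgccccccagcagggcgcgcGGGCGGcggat
Srebf2: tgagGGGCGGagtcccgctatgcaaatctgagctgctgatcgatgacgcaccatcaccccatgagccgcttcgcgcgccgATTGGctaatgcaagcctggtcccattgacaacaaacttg
Cyp51: tgccgctgtccgccaCCAATctggtcctga
Idi1: gcctccagctgATTGGcgagcccgggcatg
ATTGG and CCGCCC are the NF-Y and Sp1 boxes read on the other strand. A match describes the letters only, and no binding was measured here. Only exact matches to each pattern were searched, so a promoter without a match may still hold a variant of the element.

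Of 81872519 wild-type UMIs and 134950186 Malat1-null UMIs, 2080 and 2904 cells were kept, at a median depth of 27709 and 37791 UMIs, and 1 barcode occurred in both libraries. Malat1, the deleted gene, stood at 14899 counts per 1000000 UMIs (CPM) in beta-like cells of wild type, against 0.470 CPM in those of Malat1-null, as the labels say. Beta-like cells numbered 909 and 1783, with medians of 61243 and 47914 UMIs. The other named classes were alpha-, delta-, PP-, acinar-, ductal-, endothelial-, mesenchymal-, T or NK- and B cell-like cells, each of 24 to 295 wild-type and 16 to 307 Malat1-null cells. Levels are CPM scaled with TMM factors unless stated, and a class with fewer than 20 cells in a library is not ranked.

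In wild-type islets Sqle was highest in beta-like cells, whereas Hmgcs1, Idi1 and Cyp51 had their highest values in ductal-like cells, Fdft1 in acinar-like and ductal-like cells, Srebf2 in B cell-like cells and Insig1 in alpha-like cells. All 7 genes were detected in every one of the 10 named classes of the wild-type library. The lowest levels of Sqle, Idi1 and Srebf2 were in endothelial-like cells, those of Hmgcs1 and Fdft1 in T or NK-like cells and those of Cyp51 and Insig1 in delta-like cells. The span from the highest to the lowest of the 10 classes was 19.6-fold for Sqle and 17.8-fold for Idi1, against 2.56-fold for Insig1. With total-count CPM the highest class was the same for Sqle, Hmgcs1, Idi1, Srebf2 and Insig1, whereas that of Fdft1 was ductal-like and that of Cyp51 mesenchymal-like, the lowest class of Srebf2 and Insig1 was acinar-like and that of Cyp51 PP-like, and the spans were 9.23-fold (Sqle), 15.9-fold (Idi1) and 4.04-fold (Insig1).

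**Figure D1:**
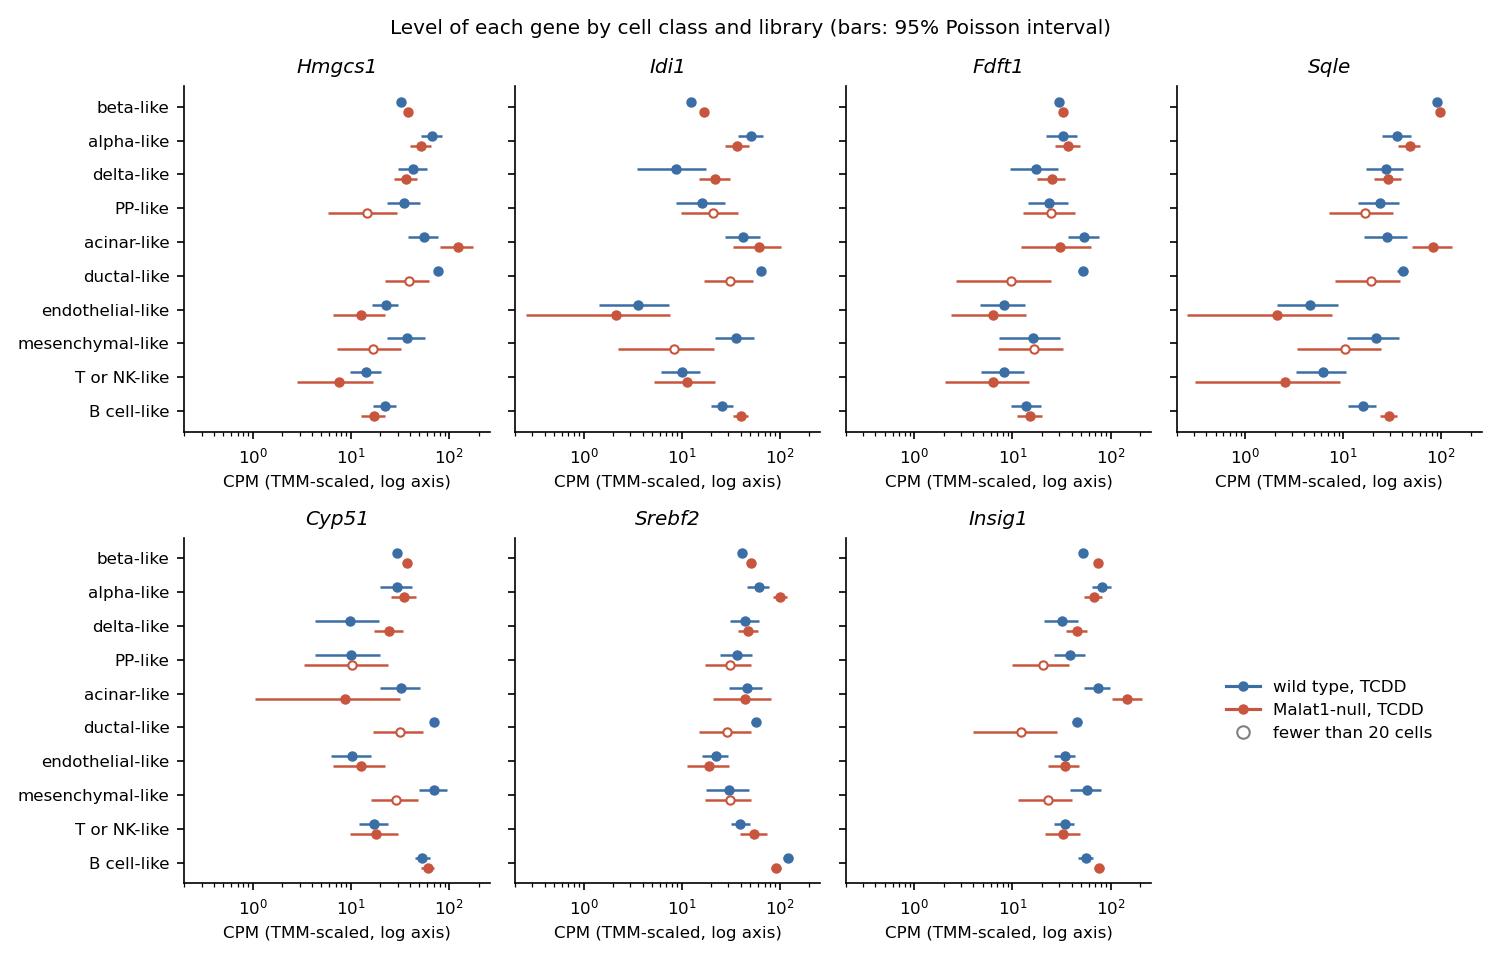
Level of each of the 7 genes (x axis, CPM with TMM scaling, log axis) in each named cell class (y axis) of the wild-type and Malat1-null libraries, both with TCDD; bars are 95% Poisson intervals and open points mark classes of fewer than 20 cells. Sqle stands at 91.0 CPM in wild-type beta-like cells and 4.64 CPM in wild-type endothelial-like cells, while Insig1 spans 32.1 to 82.2 CPM in that library.

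Among the synthesis enzymes, Sqle encodes squalene epoxidase, which makes the first oxygenated sterol precursor and is a control point late in the pathway. Its level in wild type was 91.0 CPM in beta-like (interval 88.0 to 94.1), 40.3 in ductal-like, 35.5 in alpha-like, 27.9 in acinar-like, 27.2 in delta-like and 23.8 in PP-like cells. It was 21.4 CPM in mesenchymal-like, 15.9 in B cell-like, 6.22 in T or NK-like and 4.64 in endothelial-like cells. Beta-like cells thus stood clear of the class next in order by their counting intervals, both with TMM scaling and with total-count CPM, and from ductal-like down to B cell-like cells each class overlapped the next. In Malat1-null the beta-like level was 96.9 CPM, not separated from acinar-like cells (83.2, from 42 cells), and with total-count CPM alpha-like cells (59.1) stood just above beta-like cells (54.6).

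Hmgcs1 encodes the cytosolic HMG-CoA synthase, an early enzyme of the mevalonate pathway. Its wild-type level was 76.6 CPM in ductal-like (69.9 to 83.8) and 67.0 in alpha-like cells, followed by acinar-like (55.7), delta-like (43.3), mesenchymal-like (37.4), PP-like (35.0) and beta-like cells (32.5). Neighbours in this order overlapped down to beta-like cells, which stood above endothelial-like (22.7), B cell-like (22.4) and T or NK-like cells (14.3). With total-count CPM the order turned for 2 of these, with Hmgcs1 at 31.3 CPM in endothelial-like cells (22.8 to 42.1), 21.5 in B cell-like and 21.1 in beta-like cells (20.0 to 22.4). Beta-like cells, first of 10 for Sqle, were thus 7th of 10 for Hmgcs1, or 8th with total-count CPM.

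Idi1 encodes the isomerase that supplies dimethylallyl diphosphate. It stood at 64.1 CPM in wild-type ductal-like and 50.7 in alpha-like cells, and at 12.3 CPM in beta-like cells, where it was the lowest of the 7 genes' counts (461 UMIs in 909 cells). Fdft1, which encodes squalene synthase, stood at 54.1 CPM in acinar-like and 52.2 in ductal-like cells, at 30.1 in beta-like and at 8.13 in T or NK-like cells. Cyp51, the lanosterol demethylase, was at 71.0 CPM in ductal-like, 69.5 in mesenchymal-like and 53.3 in B cell-like cells, at 29.5 in beta-like and at 9.89 in delta-like cells. Between the endocrine classes alpha and beta, Idi1 was higher in alpha-like cells (interval 37.7 to 66.9) than in beta-like cells (11.2 to 13.5), while Fdft1 and Cyp51 overlapped between these classes. With total-count CPM all 3 were higher in alpha-like cells, Fdft1 at 37.5 (25.6 to 52.9) against 19.6 CPM (18.4 to 20.7) and Cyp51 at 34.0 (22.7 to 48.8) against 19.2 CPM (18.1 to 20.4).

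Of the control genes, Srebf2 encodes SREBP2. Its wild-type level was 121 CPM in B cell-like cells (108 to 136), clear of alpha-like (60.9), ductal-like (56.7), acinar-like (45.9), delta-like (44.5), beta-like (40.8), T or NK-like (39.7), PP-like (36.3), mesenchymal-like (30.3) and endothelial-like cells (22.2). In Malat1-null, alpha-like (101.2) and B cell-like cells (91.2) led, and their intervals overlapped. With total-count CPM alpha-like cells (125.7, 105.3 to 148.9) stood clear of B cell-like cells (85.4, 75.9 to 95.7) in Malat1-null. On that scale wild-type beta-like cells were 9th of 10 for Srebf2, at 26.5 CPM (25.2 to 27.9), below T or NK-like cells at 47.5 CPM (37.9 to 58.9). Insig1 encodes the endoplasmic reticulum protein that retains SCAP. Its wild-type level was 82.2 CPM in alpha-like, 73.7 in acinar-like, 57.1 in mesenchymal-like, 55.8 in B cell-like and 52.7 in beta-like cells, and its lowest was 32.1 CPM (delta-like). No 2 neighbouring classes in the wild-type order of Insig1 were separated by their intervals.

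The acinar-like positions rest on few molecules per cell (266 wild-type cells with a median of 1632 UMIs) and on their scaling: with total-count CPM wild-type Fdft1 was 17.2 CPM in acinar-like and 64.5 in ductal-like cells, and Insig1 in acinar-like cells was last of 10 at 23.5. In barcodes of at most 100 UMIs, which hold free RNA and no cell, the 7 genes stood at 14.5 to 31.9 CPM (wild type) and 9.65 to 33.3 CPM (Malat1-null) without scaling, the highest being Insig1 and Sqle. On the same scale Sqle was 7.45 CPM in wild-type T or NK-like cells, under its 28.3 CPM in those barcodes, and 59.2 in beta-like cells. The other 6 genes were closer to their free level in wild-type beta-like cells, Idi1 (8.02 against 14.5 CPM) and Hmgcs1 (21.13 against 24.998) below it and Fdft1 (19.6 against 18.6), Cyp51 (19.2 against 17.9), Insig1 (34.3 against 31.9) and Srebf2 (26.5 against 20.2) above it. In Malat1-null, Idi1 stood at 9.44 against 9.65 CPM, and the other 6 were above, Sqle at 54.6 against 33.3 and Insig1 at 42.2 against 31.1. The part of free RNA in the beta-like levels was not tested.

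The make-up of the 7 genes' UMIs differed between classes and is free of any scaling between them. In beta-like cells Sqle gave 31.5% of the summed UMIs with Malat1 and 27.9% without (intervals 30.6 to 32.4 and 27.2 to 28.5). In the other classes its share ran from 4.37% to 14.9% (wild type) and from 1.90% to 16.7% (Malat1-null). Srebf2 gave 39.3% in wild-type B cell-like and 30.6% in T or NK-like cells, against 14.1% in beta-like cells. Insig1 was the largest part in endothelial-like cells (32.5% and 38.1% in the 2 libraries), and Cyp51 in wild-type mesenchymal-like cells (26.0%). Idi1 gave 4.27% in wild-type beta-like cells and 15.8% in ductal-like cells (14.4 to 17.3), the latter an epithelium whose 7 genes summed to 406 CPM against 289 CPM in beta-like cells.

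**Figure D2:**
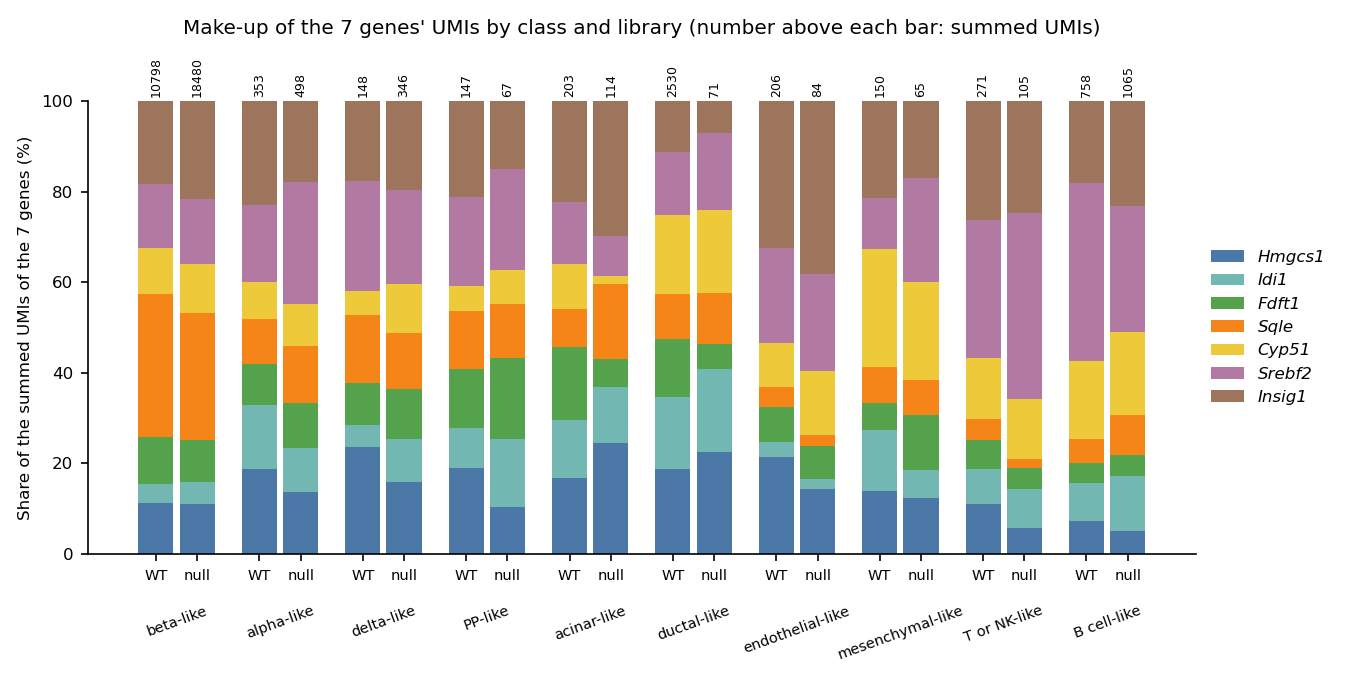
Share of each of the 7 genes in their summed UMIs (y axis, percent) for each cell class in the wild-type (WT) and Malat1-null (null) libraries, with the summed UMIs above each bar. Sqle takes 31.5% and 27.9% in beta-like cells and at most 16.7% in any other class and library.

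In beta-like cells the 7 genes were higher in Malat1-null than in wild type with TMM scaling, by 1.06-fold to 1.42-fold, and together they stood at 289 and 348 CPM, a ratio of 1.203 (1.17 to 1.23). The order was Insig1, Idi1, Cyp51, Srebf2, Hmgcs1, Fdft1 and Sqle. Direction depended on the scaling for 2 of them: with total-count CPM Sqle (ratio 0.923, interval 0.884 to 0.964) and Fdft1 (0.943, 0.875 to 1.02) were lower in Malat1-null, and the summed level was 188 against 196 CPM (ratio 1.04, 1.02 to 1.07). It also depended on how cells were weighted. In single cells thinned to equal depth, each counted equally, mean Srebf2 (0.310 and 0.290 UMIs) and Cyp51 (0.219 and 0.216) were also lower in Malat1-null. The mean sum there was 2.02 and 2.00 UMIs, while Hmgcs1, Idi1 and Insig1 remained higher. The scaling shifted the median of all genes by 0.21 on the log2 scale, from 0.06 with TMM to −0.16 with total-count CPM, and relative to that median all 7 genes were above it under both. A gene counted as higher or lower here if it reached 20 CPM in either library, 50 UMIs in all and a ratio past 1.2-fold. Idi1 missed the level minimum, 3 of the other 6 genes were higher and 0 lower, against 15.6% higher and 7.03% lower among all 5764 genes that met the minimums. With total-count CPM 1 of 5 was higher, Insig1, and 0 lower, against 3.94% and 28.2% of 4033 genes. Relative to the median of all genes, 2 were higher under either scaling, Insig1 and Cyp51.

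Insig1 had the largest pooled difference of the 7 (Cyp51 the largest when each beta-like cluster had equal weight). It stood at 52.7 CPM in wild-type beta-like cells (50.4 to 55.1, from 1971 UMIs) and at 74.9 CPM in Malat1-null (72.6 to 77.2, from 3981 UMIs), a ratio of 1.42 (1.34 to 1.499), and with total-count CPM the ratio was 1.23 (1.17 to 1.30). Srebf2 stood at 40.8 and 50.5 CPM, a ratio of 1.24 (1.16 to 1.32), and Cyp51 at 29.5 and 37.6 CPM, a ratio of 1.27 (1.18 to 1.37). With TMM scaling the counting intervals of the 2 libraries did not overlap for these 3 genes, nor for Hmgcs1, Idi1 and Sqle. With total-count CPM the intervals of the 2 libraries overlapped for Srebf2 and for Cyp51, whose ratios were 1.07 (1.01 to 1.14) and 1.10 (1.02 to 1.19).

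Idi1, below the level minimum, stood at 12.3 and 16.7 CPM, a ratio of 1.36 (1.21 to 1.52). Hmgcs1 stood at 32.5 and 38.3 CPM, a ratio of 1.18 (1.10 to 1.27) that came to 1.02 (0.951 to 1.10) with total-count CPM. The remaining pair, Fdft1 and Sqle, act one after the other at the start of the sterol branch and were the closest to equal. Fdft1 stood at 30.1 and 32.7 CPM, a ratio of 1.09 (1.01 to 1.17). Sqle stood at 91.0 and 96.9 CPM, a ratio of 1.06 (1.02 to 1.11). Relative to the median of all genes these last 2 lay 0.07 and 0.04 above it on the log2 scale, and Insig1 0.45.

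Other measures moved with genotype in these cells besides the 7 genes: the wild-type beta-like cells were deeper, and they held more RNA of acinar genes and of Spp1 and less of the beta markers. Beta-like cells had medians of 61243 and 47914 UMIs, and in them the 10 acinar markers summed to 316 and 49.7 CPM, with 10 of 10 lower and none at 0 in either library. The 9 ductal markers summed to 1428 and 591 CPM, of which Spp1 made 951 and 139 CPM, while Mmp7 was at 0 in both libraries and Sox9 and Cftr in wild type. Of the ductal markers 4 were lower and 3 higher in Malat1-null by over 1.2-fold, and without Spp1 they summed to 476 and 452 CPM. The 4 PP markers summed to 382 and 207 CPM, with 2 lower and 1 higher by that fold. The sum of the 10 beta markers, the insulin genes among them, was higher in Malat1-null with TMM scaling, at a ratio of 1.27. Of these markers 7 were higher and 0 lower by that fold. The part of these RNAs in the ratios was not tested. Between beta-like cells of 30000 to 70000 UMIs, where depth was closer, the ratio of Insig1 was 0.38 on the log2 scale in place of 0.51, that of Srebf2 0.19 in place of 0.31, and that of Hmgcs1 0.02 in place of 0.24. The ratio of Idi1 was 0.32 in place of 0.44. Those of Cyp51 (0.33 in place of 0.35), Fdft1 (0.10 in place of 0.12) and Sqle (0.12 in place of 0.09) moved less.

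The other genes of the pathway are given as lists, each read against the 15.6% higher and 7.03% lower among all genes in beta-like cells. Of 17 other synthesis enzymes 6 met the minimums, 1 was higher (Fdps, which makes farnesyl diphosphate) and 1 lower (Pmvk, phosphomevalonate kinase), shares near those of all genes. Fdps stood at 66.5 and 82.8 CPM, a ratio of 1.24 (1.18 to 1.31), and Pmvk at 76.8 and 60.9 CPM, a ratio of 0.793 (0.754 to 0.834). Over genes that met the minimums the median was 0.11 on the log2 scale for these enzymes, 0.27 for the members and 0.06 for all genes. With genes below the minimums included, the median of the 17 was 0.15 and that of the 7 genes 0.31.

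**Figure D3:**
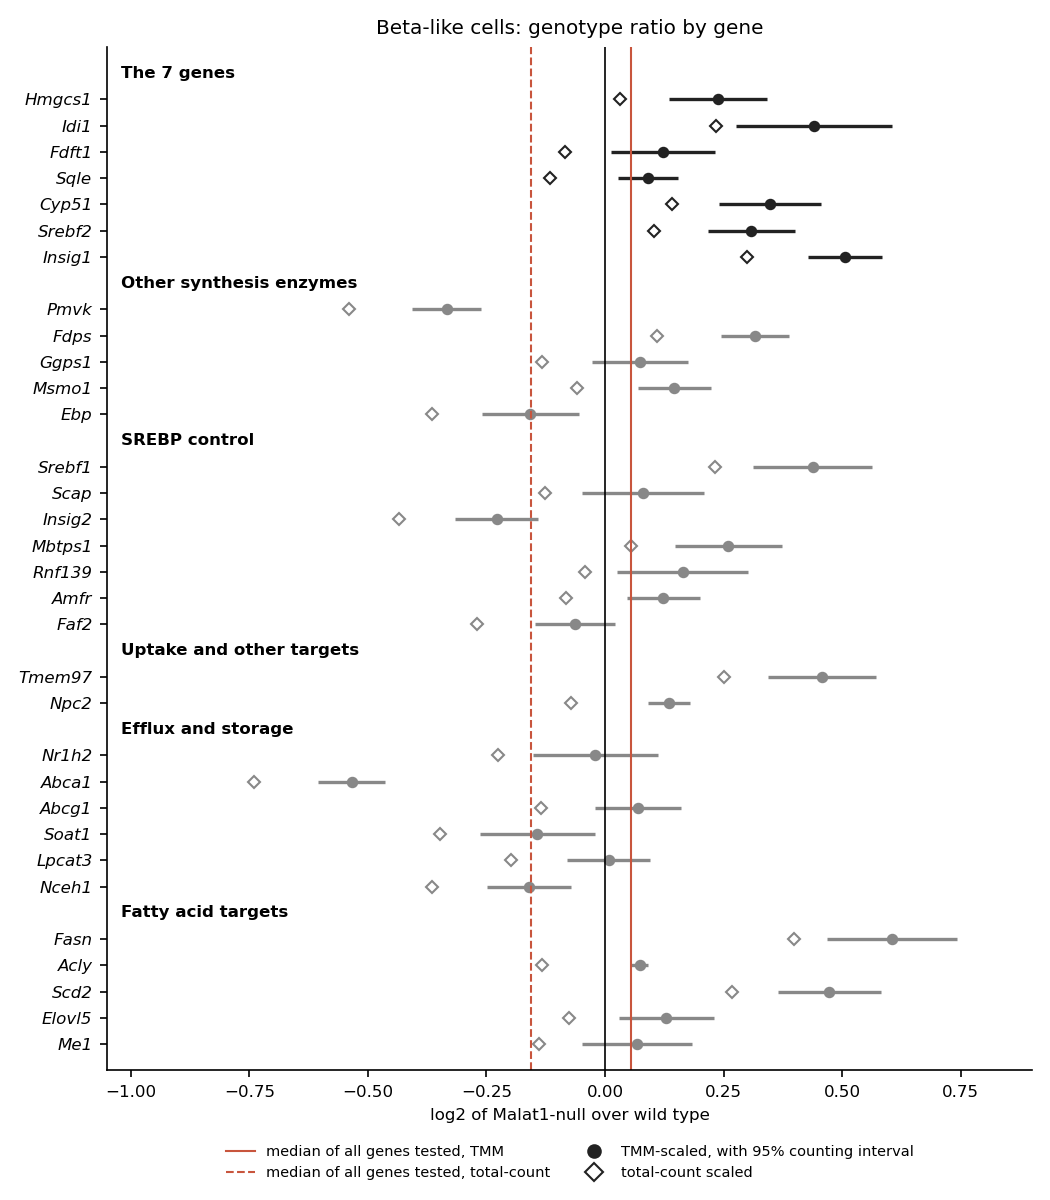
log2 of the Malat1-null over wild-type level in beta-like cells (x axis) for the 7 genes and for genes of the other lists that met the level minimums (y axis), as filled points with 95% counting intervals (TMM scaling) and open diamonds (total-count CPM); red lines are the medians of all genes tested. Insig1 lies at 0.51 and Abca1 at −0.53 with TMM, and of the 7 genes Sqle and Fdft1 change sign between the 2 scalings, as do some genes of the other lists; Idi1 is drawn although it is below the minimum.

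Of 9 genes of the SREBP control machinery 7 met the minimums and 1 was higher, near the 15.6% of all genes, namely Srebf1, which encodes SREBP1 (21.2 and 28.7 CPM, ratio 1.35, 1.24 to 1.48). Scap stood at 21.8 and 23.1 CPM (ratio 1.06, 0.967 to 1.16) and was lower with total-count CPM (0.916, 0.838 to 1.00). Insig2, the paralog of Insig1, stood at 51.9 and 44.3 CPM, a ratio of 0.853 (0.803 to 0.907). The 2 INSIG genes thus lay on opposite sides of 1 under both scalings. Mbtps1, the first of the Golgi proteases, had a ratio of 1.197 (1.11 to 1.29), just under the fold used and named after its value was seen.

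Of 7 uptake genes and other SREBP2 targets 3 met the minimums and 2 were higher. Among them was Tmem97, which encodes a sterol-regulated membrane protein, at 25.8 and 35.4 CPM, a ratio of 1.37 (1.27 to 1.49). Below the level minimum, and named after its value was seen, Stard4, which encodes a sterol transport protein, stood at 7.15 and 11.6 CPM, a ratio of 1.63 (1.41 to 1.89).

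Of 9 genes of efflux, storage and the sterol-sensing receptor LXR 6 met the minimums, 0 were higher and 1 lower. That gene was Abca1, the transporter that exports cholesterol to apolipoproteins, at 87.1 and 60.1 CPM, a ratio of 0.691 (0.657 to 0.725), and 0.599 (0.570 to 0.629) with total-count CPM. Of 12 fatty acid genes known as SREBP1 targets 5 met the minimums and 2 were higher, and with total-count CPM 3 met them and 1 was higher. One of the 2, Fasn, reached the minimum of 20 CPM in Malat1-null alone, so its place in this count depends on the minimum. Fasn, fatty acid synthase, stood at 16.9 and 25.7 CPM, a ratio of 1.52 (1.38 to 1.67), and Scd2, a stearoyl-CoA desaturase, at 28.0 and 38.9 CPM, a ratio of 1.39 (1.29 to 1.496). The medians of these 2 lists were −0.08 and 0.13 on the log2 scale over genes that met the minimums. With genes below the minimums included they were −0.02 and 0.15. With total-count CPM 18 genes of these 5 lists met the minimums. Of these 2 counted as higher, Scd2 among them, against 3.94% of all genes. As lower counted 6 (2 enzymes, 2 control genes and 2 efflux and storage genes), near the 28.2% lower among all genes.

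Beta-like cells fell into 7 clusters, formed without the genes of these lists, and 6 of them held at least 20 cells of each library. They are called here by leading genes, and since each library is 1 sample, a cluster filled mainly by 1 library may reflect that library. The genotypes filled them differently: the cluster led by Slc2a2, Ppp1r1a and Ucn3 held 11.8% of the wild-type beta-like cells against 43.1% of the Malat1-null ones, and that led by Pdyn, Serpina7 and Fbp2 held 44.4% and 17.3%. The summed level of the 7 genes in wild type ran from 226 CPM in the heat shock cluster (Hspa1a, Hspa1b, Hspb1) and 232 CPM in the Slc2a2 cluster to 373 CPM in the cluster led by Pdyn, Snhg11 and Crybb3. In Malat1-null the same 3 clusters stood at 284, 312 and 507 CPM, so on this scale the lowest and the highest of the 6 were the same in both genotypes. With each cluster's own TMM factor the highest Malat1-null sum was in the Slc2a2 cluster (292 CPM), against 270 in the Snhg11 cluster. The cluster too small to compare, led by Wdcp with 20 wild-type cells, had a wild-type sum of 384 CPM (339 to 434).

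In each of the 6 clusters the summed level was higher in Malat1-null, with ratios of 1.198 to 1.37. When each cluster was scaled by its own TMM factor the ratios were 1.06 to 1.31, and with total-count CPM 1.04 to 1.19, above 1 in 6 of 6 clusters each time. Cyp51 was above 1 in 6 of 6 clusters under all 3 scalings. Its interval was clear of 1 in 4 of them with 1 factor per library and in 3 with each cluster's own factor. With total-count CPM the intervals of Cyp51 and of the sum both included 1 in the heat shock cluster and in those led by Angptl7 and by Gem. With its own factor the Snhg11 cluster had a sum interval that included 1 (1.06, 0.983 to 1.15). The clusters come from the same 2 libraries and are not replicates. In the Snhg11 cluster Cyp51 stood at 34.3 and 62.4 CPM (1.82, 1.43 to 2.31), the largest of its ratios with 1 factor per library. With that cluster's own factor its ratio there was 1.42 (1.12 to 1.80). With each cluster's own factor the largest was in the Slc2a2 cluster, at 20.8 and 31.3 CPM.

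The Insig1 ratio was smallest in the 2 clusters with the highest wild-type level. In the Serpina7 cluster it stood at 48.3 and 82.3 CPM (ratio 1.70, 1.54 to 1.88), in the Snhg11 cluster at 68.6 and 118 CPM (1.72, 1.45 to 2.04) and in the Slc2a2 cluster at 45.6 and 65.0 CPM (1.42, 1.23 to 1.65). In the cluster led by Angptl7, Mlxipl and Glp1r it stood at 83.1 and 90.7 CPM (1.09, 0.880 to 1.36), and in the cluster of the early-response genes Gem, Nfkbia and Cebpd at 74.3 and 83.1 CPM (1.12, 0.957 to 1.32). In the heat shock cluster it stood at 35.4 and 46.2 CPM (1.31, 1.01 to 1.68). The intervals of the Angptl7 and Gem clusters include 1, so a difference was not detectable there at this depth, and the difference between clusters was not tested. With each cluster's own TMM factor the Insig1 ratios over the 6 clusters were 1.02 to 1.39, and with total-count CPM 4 of 6 were above 1.

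The pooled and within-cluster ratios of Sqle differed, and the cause was not tested. Its pooled ratio was 1.06 (0.923 with total-count CPM). Within the 6 clusters it was 1.17 to 1.33, and 1.01 to 1.16 with total-count CPM, above 1 in 6 of 6 both times. With total-count CPM the interval was clear of 1 in the Slc2a2 cluster alone (1.14, 1.01 to 1.28). With each cluster's own TMM factor 4 of 6 were above 1, and 2 of 6 had an interval clear of 1. The Serpina7 cluster, the one with most wild-type cells, had wild-type Sqle at 100.02 CPM, and the Malat1-null cells were most often in the Slc2a2 cluster, where it was at 89.5 CPM and wild-type cells at 68.4 CPM. With equal weight for each cluster the Sqle ratio was 1.23, and 1.11 with each cluster's own factor. With 1 factor per library Abca1 was lower in Malat1-null in 5 of the 6 clusters and at 1.13 (0.966 to 1.31) in the Snhg11 cluster. Its ratios by cluster were not computed with the other scalings.

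**Figure D4:**
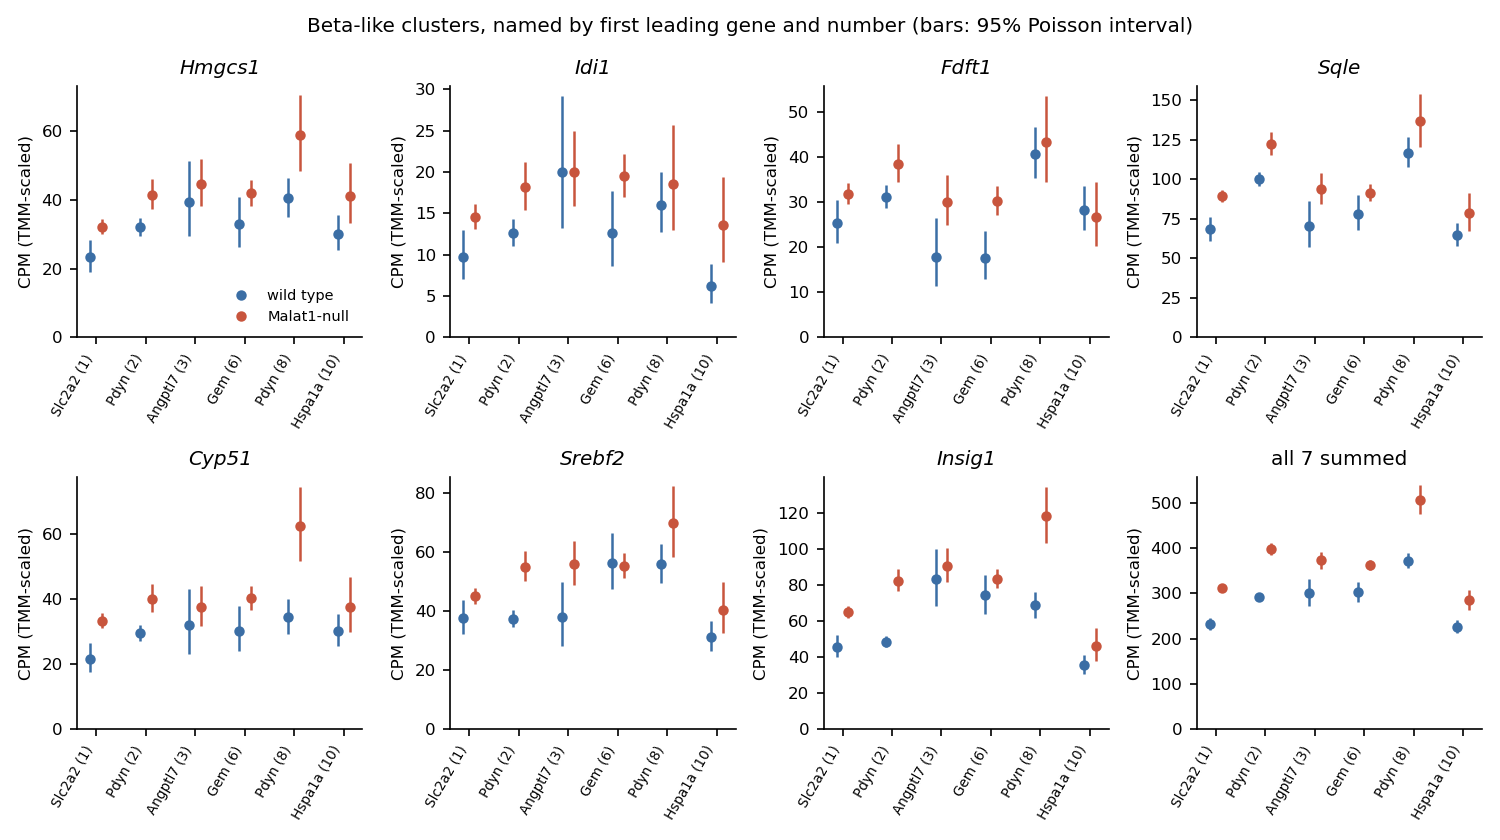
CPM (y axis, TMM scaling with 1 factor per library) of the 7 genes and of their sum in the 6 beta-like clusters with at least 20 cells of each library (x axis, first leading gene and cluster number), wild type and Malat1-null, with 95% Poisson intervals. The summed level is higher in Malat1-null in 6 of 6 clusters, while Insig1 lies at 74.3 and 83.1 CPM in the Gem cluster and at 68.6 and 118 CPM in the Pdyn cluster with number 8.

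Single beta-like cells were compared after thinning each to 10000 UMIs, which left out 28 wild-type and 78 Malat1-null cells. The 7 genes then gave a mean of 2.02 UMIs per wild-type cell (881 cells) and 2.00 per Malat1-null cell (1705 cells), a total-count scale, and 80.8% and 82.6% of cells held at least 1 of them. By gene the mean was lower in Malat1-null for Sqle (0.585 and 0.541), Fdft1 (0.211 and 0.178), Srebf2 (0.310 and 0.290) and Cyp51 (0.219 and 0.216). It was higher for Hmgcs1 (0.213 and 0.222), Idi1 (0.0772 and 0.0933) and Insig1 (0.401 and 0.457). Sqle was seen in 42.6% and 39.8% of cells, Insig1 in 29.9% and 34.7%, and Idi1 in 7.26% and 8.45%. The variance between cells was 1.03 to 1.17 times the mean for the other 6 genes in both libraries. For Insig1 it was 1.54 times the mean in wild type and 1.15 times in Malat1-null, but the wild-type value rests on 1 cell with 13 UMIs, without which it was 1.13 times. Across cells the 21 pairs of the 7 genes correlated weakly, with Spearman's rho of 0.01 to 0.11 in wild type and −0.02 to 0.06 in Malat1-null, and counts this sparse carry no finding on pairs.

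In the other classes the comparison rests on 32 to 295 wild-type and 39 to 307 Malat1-null cells, delta-like wild type excepted (24). In alpha-like cells 2 of the 7 genes were higher and 3 lower, against 31.3% and 17.6% of all genes. With total-count CPM the balance turned to 4 higher and 2 lower, against 43.2% and 12.2%. Srebf2 alone of the 7 had an interval clear of 1 there: it stood at 60.9 and 101.2 CPM, a ratio of 1.66 (1.22 to 2.29), and 1.79 (1.31 to 2.47) with total-count CPM. The alpha-like cells of the 2 libraries came mostly from different clusters, both led by Gcg, Ttr and Gpx3, with 31 wild-type and 10 Malat1-null cells in one and 1 and 58 in the other. Within the first, with its own TMM factor, the Srebf2 ratio was 1.65 (0.939 to 2.77). In delta-like cells 2 of 5 were higher and 0 lower, against 32.7% and 15% of all genes, and none of these 5 intervals was clear of 1. With total-count CPM 2 were higher and 1 lower, against 28.7% and 17.5%. Below the minimums, Idi1 (7 and 33 UMIs, ratio 2.54, 1.11 to 6.80) and Cyp51 (8 and 37 UMIs, ratio 2.49, 1.14 to 6.19) had intervals above 1.

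In endothelial-like cells 0 of 3 genes were higher and 1 lower (Hmgcs1, 22.7 and 12.8 CPM, ratio 0.563, 0.271 to 1.08), against 20.8% and 36.4% of all genes. In T or NK-like cells 1 of 2 was higher (Srebf2, 39.7 and 54.7 CPM, ratio 1.38, 0.931 to 2.02) and 0 lower, against 23% and 26.8%. No member had an interval clear of 1 in these 2 classes. Both held under 100 UMIs of any 1 of the 7 genes in a library.

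In B cell-like cells 3 of 6 were higher and 2 lower, against 21.2% and 34.1% of all genes. Sqle (15.9 and 29.1 CPM, ratio 1.83, 1.25 to 2.73), Idi1 (26.0 and 39.9, 1.53, 1.13 to 2.099) and Insig1 (55.8 and 76.3, 1.37, 1.11 to 1.70) were higher in Malat1-null, and Srebf2 was lower (121 and 91.2, 0.752, 0.638 to 0.886). The directions were the same with total-count CPM. The class joined 2 clusters, one led by Cd79a, Cd74 and Cd79b (156 and 229 cells) and one led by the antibody genes Igkc, Jchain and Ighm (37 and 78 cells). Each was also scaled with its own TMM factor. Srebf2 was then at 105 and 82.4 CPM in the first (ratio 0.782, 0.605 to 1.01) and at 112 and 83.7 CPM in the second (0.744, 0.595 to 0.934). Hmgcs1 had ratios of 1.61 (0.716 to 3.74) and 0.484 (0.306 to 0.765), Sqle of 2.56 (1.10 to 6.41, from 9 and 19 UMIs) and 1.33 (0.863 to 2.11), Idi1 of 1.06 (0.561 to 1.99) and 1.44 (0.995 to 2.13), and Insig1 of 1.08 (0.732 to 1.61) and 1.32 (1.01 to 1.73). Of these, the intervals of Sqle in the first cluster and of Hmgcs1 and Insig1 in the second were clear of 1. Insulin RNA differed too: Ins2 in the antibody cluster was at 541 and 68158 CPM. Its part in the higher Sqle and the lower Srebf2 level of this class was not tested.

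In acinar-like cells 2 of 2 genes that met the minimums were higher, Hmgcs1 (55.7 and 123 CPM, ratio 2.20, 1.29 to 3.74) and Insig1 (73.7 and 149, 2.02, 1.25 to 3.22), against 13.1% of all genes, and 55.7% with total-count CPM. Hmgcs1 passed the minimum of 50 UMIs with 34 in wild type and 28 in Malat1-null, so this count is shaped by the minimum. The members below it went both ways. Sqle (27.9 and 83.2 CPM) and Idi1 (42.6 and 61.3) were higher, and Fdft1 (54.1 and 30.7), Srebf2 (45.9 and 43.8) and Cyp51 (32.8 and 8.76) were lower. Ins2 in these cells stood at 4.52% and 32.5% of the beta-like level, and its part in these ratios was not tested. Ductal-like, mesenchymal-like and PP-like cells had 17, 17 and 16 cells in Malat1-null, below the minimum used. All 7 genes were lower in these few ductal-like cells, the sum being 406 and 172 CPM (ratio 0.422, 0.329 to 0.534), and 0.508 (0.395 to 0.643) with total-count CPM. The mesenchymal-like sum was 267 and 135 CPM (0.504, 0.371 to 0.679) and the PP-like sum 184 and 138 CPM (0.751, 0.554 to 1.01), the latter ratio being 0.678 (0.4999 to 0.911) with total-count CPM.

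Over the 17 class and library levels with at least 20 cells, each gene was set against the mean profile of the other 6. Pearson's r was 0.852 for Idi1, 0.850 for Fdft1, 0.797 for Sqle, 0.730 for Insig1, 0.705 for Hmgcs1, 0.505 for Srebf2 and 0.427 for Cyp51, as a description of points that share libraries and depth. Srebf2 and Cyp51 thus followed the others least. The 5 genes outside the lists with the profile most like the mean of the 7, out of 9518 genes, were Tuba4a (r of 0.877), Uqcr11 (0.858), Gsn (0.840), Copz1 (0.837) and Rfc1 (0.832). Across thinned beta-like cells the 5 of 5206 genes most correlated with the summed 7 genes, by the mean of Spearman's rho over the 2 libraries, were Meg3 (0.162), Ucp2 (0.141), mt-Nd1 (0.138), Tcf25 (0.137) and Txnrd1 (0.137). These values are low.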

How the data were processed

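Raw UMI counts per gene and barcode were deposited for the 2 TCDD libraries. Cell Ranger 4 made them per the file headers, while the submitters' processing notes name Cell Ranger 2.1.0 and build mm10; which one applies was not settled. All 32285 genes were used and 0 columns of per-sample values were left unused. Barcodes with at least 1000 UMIs were kept (2166 and 3198), and those above 20% mitochondrial UMIs were removed (69 and 286). Scrublet in scanpy 1.11.5 marked 25 of 5009 barcodes as doublets (0.499%), a share too low for the caller to have worked, so how many doublets remain is unknown. Clusters were formed over both libraries from 2000 variable genes, leaving out pathway, mitochondrial and sex-linked genes and Malat1 (30 components, 15 neighbours, Leiden resolution 1, igraph 0.11.9). Clusters took a class from 14 marker lists when its score was at least 0.6 and at least 3 markers reached 20 CPM. They stayed unnamed where insulin stood beside another class at 10% or more of the highest cluster.

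UMI sums of each class in each library became CPM with TMM factors from edgeR 4.0.16 (R 4.3.3), fitted over all named classes of both libraries. Intervals are exact at 95% (Poisson for levels, conditional binomial for ratios, Clopper-Pearson for shares) and cover counting error only. Medians over all genes used 0.5 UMIs added. The ratio and its interval were tested on simulated data. Alternatives were total-count CPM, CPM without hormone, mitochondrial and Malat1 UMIs, other UMI minimums, other clusterings and a window of depth. The members and the lists were chosen with earlier results of these data known. Genes named are the 7 members in every class with at least 20 cells, the genes of the other 5 lists past 1.2-fold with at least 20 CPM in beta-like cells, Srebf1, Insig2 and Scap at any value, and the 5 genes with the most similar profile over classes and over cells. Some genes of the lists count in the totals but are not reported here by name. Coordinates are from GENCODE and promoter sequences from RefSeq.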

Additional observations from a re-analysis of the deposited data

Results flagged for a closer look

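Srebf2 differed between genotypes in opposite directions in 2 cell classes. In B cell-like cells the Malat1-null level was lower, with a ratio of 0.752 (0.638 to 0.886), and in beta-like cells it was higher, with a ratio of 1.24 (1.16 to 1.32). The directions were the same with total-count CPM, at 0.734 (0.623 to 0.865) and 1.07 (1.01 to 1.14). In the larger of the 2 B cell-like clusters, with its own TMM factor, the interval included 1. Of 6 beta-like clusters the ratio was above 1 in 5, or in 4 with each cluster's own factor. Ins2 in B cell-like cells stood at 0.204% (wild type) and 12.2% (Malat1-null) of the beta-like level, and its part in the lower Srebf2 was not tested. The difference between the classes was not tested, since each genotype is 1 library, and whether it belongs to the genotypes or to these 2 libraries cannot be told apart.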

How the results depend on the processing

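The median log2 ratio of the 7 genes in beta-like cells was 0.31 and remained positive under every alternative run on UMIs summed over cells. It was 0.10 with total-count CPM and 0.19 between cells of 30000 to 70000 UMIs, and the count of genes past 1.2-fold, 3 of 6, was 1 of 5 with total-count CPM. In single thinned cells the means of Sqle, Fdft1, Srebf2 and Cyp51 were lower in Malat1-null, and those of Hmgcs1, Idi1 and Insig1 higher. Equal weight for clusters, TMM factors from the beta-like pair alone and ratios relative to the median of all genes were alternatives chosen after seeing the data. Giving each beta-like cluster equal weight made that count 6, and 2 when each cluster also had its own TMM factor. The cause was not tested. Wild-type ductal-like cells exceeded beta-like cells by a median of 0.80 on the log2 scale, and by 1.72 with total-count CPM. Of 248 recomputed values 213 stayed within the counting interval of the reported value or, for counts, within 1.5 times of it. Sqle (0.09, down to −0.12), Fdft1 (0.12, down to −0.08) and Scap (0.08, down to −0.13) changed sign with total-count CPM. No paired analysis was possible because each genotype has 1 library, and for the same reason no replicate could be left out. Depth limits the classes other than beta-like cells, where most single genes rest on fewer than 100 UMIs in a library.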

Other observations

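Of the clusters left without a class, one led by Gcg and Gpx3 with insulin RNA (14 wild-type and 63 Malat1-null cells) had a summed level of the 7 genes of 268 and 224 CPM with its own TMM factor, a ratio of 0.836 (0.723 to 0.969), and of 0.640 (0.554 to 0.742) with total-count CPM. Insig1 there stood at 66.5 and 45.9 CPM, a ratio of 0.690 (0.512 to 0.943). The cluster led by Cxcl2, Lyz2 and C1qb (14 and 41 cells), unnamed because insulin RNA stood beside macrophage markers, had 157 and 175 CPM, a ratio of 1.11 (0.766 to 1.65), and of 0.873 (0.5996 to 1.30) with total-count CPM.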
